A study of Mus musculus with 10 samples.

Results

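The mitochondrial ribosomal protein genes were taken as all genes whose single symbol in the platform annotation starts with Mrpl or Mrps followed by a digit. There were 77 of them among 19938 genes on the array, 48 with an Mrpl and 29 with an Mrps symbol. For genes with several probe sets, the brightest on average over the arrays was used. All 77 lay above the filter on low signals, which kept 11963 genes.

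RNA of gastrocnemius, a calf muscle, from male C57BL/6 mice was hybridised to 10 Affymetrix whole-transcript arrays, each holding a pool of 5 animals. In the F0 generation, mice had voluntary exercise (EX) or were sedentary (SED), and were paired with mates of the same exposure. Littermates from the F1 generation were bred to give F2. F1 and F2 mice were themselves sedentary, so that EX and SED in them name only the exposure of their ancestors. Mice of F0 were 28 weeks old, with 1 pool from EX and 1 from SED. Mice of F1 and F2 were 8 weeks old, with 2 pools for each ancestry in each generation. F0 therefore differed from its descendants in age as well as generation, and these cannot be told apart. Signals are given in log2 units, as the table holds them, and every difference is a difference of log2 signals.

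The mitochondrial ribosome translates the few messenger RNAs encoded by mitochondrial DNA, all of which specify subunits of the respiratory chain and ATP synthase. Its ribosomal RNAs come from mitochondrial DNA, while its proteins are encoded in the nucleus, made in the cytosol and imported. Some of these proteins descend from bacterial ribosomal proteins and others have no bacterial counterpart. By symbol number, with the known exceptions, 48 of the 77 genes had a bacterial counterpart and 29 had none. Symbols do not always name the subunit: the products of Mrps30 and Mrps18a are now placed in the large subunit, and Mrps36 encodes a component of the 2-oxoglutarate dehydrogenase complex. Muscle, which relies on oxidative phosphorylation during sustained work, is among the tissues affected when these genes are mutated.

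Nuclear genes for mitochondrial proteins often carry sites for NRF-1, for ETS factors such as NRF-2 and for YY1 in their promoters. RefSeq promoter windows of assembly GRCm38.p6, from 250 bases before to 50 after a gene start, were found for 68 of the 77 genes (74 windows). They were searched on both strands for the letters GCGCA, any base, then GCGC (NRF-1), CCGGAAG (ETS) and AAGATGGC (YY1). The NRF-1 letters were in 17.6% of the windows, against 9.41% of the windows of all genes kept on the arrays and 4.6% of all windows. The ETS letters were in 33.8%, against 16% and 8.86%. The YY1 letters were in 16.2%, against 4.2% and 2.75%. At least 1 of these was in 42 of the 74 windows (56.8%, against 26.3% and 14.7%), and matches to different motifs of the 3 overlapped in 0 windows. The GC box GGGCGG was in 52.7%, against 61.6% and 35.7%. The CCAAT box, searched as CCAAT, was in 39.2%, against 36.5% and 37.4%, and the TATA box TATAAA in 6.76%, against 7.49% and 13.6%. The median GC content was 58.5%, against 60.7% and 52.7%. These matches are descriptions of the letters and not sites shown to be bound.

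The first 250 bases of 6 such windows are given, 5′ to 3′ and ending just before the gene start, with matches to NRF-1, ETS or YY1 letters in capitals. Mrpl44 and Mrpl22, which head comparisons below, hold an NRF-1 and an ETS match. Mrpl17 and Mrpl32 each hold 2 kinds of match (NRF-1 with ETS, and NRF-1 with YY1). Mrps10 and Mrpl33, which had the smallest p in other comparisons, hold no match to the 3 in this stretch. The whole Mrpl33 window, which runs past the gene start, does hold an ETS match, and Mrpl33 is counted with the ETS genes below.
Mrpl44, chr1:79775768-79776017, plus strand: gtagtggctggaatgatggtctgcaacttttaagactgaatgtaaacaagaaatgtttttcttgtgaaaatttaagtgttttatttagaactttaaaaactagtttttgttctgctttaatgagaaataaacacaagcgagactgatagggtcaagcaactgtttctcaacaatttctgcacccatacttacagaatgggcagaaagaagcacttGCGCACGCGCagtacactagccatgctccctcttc
Mrpl22, chr11:58171414-58171663, plus strand: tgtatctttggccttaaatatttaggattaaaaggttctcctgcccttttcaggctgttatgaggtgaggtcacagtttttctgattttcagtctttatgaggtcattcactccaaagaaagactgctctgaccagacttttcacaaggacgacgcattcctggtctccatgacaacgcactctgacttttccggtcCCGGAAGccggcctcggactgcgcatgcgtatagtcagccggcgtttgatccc
Mrpl17, chr7:105811088-105811337, minus strand: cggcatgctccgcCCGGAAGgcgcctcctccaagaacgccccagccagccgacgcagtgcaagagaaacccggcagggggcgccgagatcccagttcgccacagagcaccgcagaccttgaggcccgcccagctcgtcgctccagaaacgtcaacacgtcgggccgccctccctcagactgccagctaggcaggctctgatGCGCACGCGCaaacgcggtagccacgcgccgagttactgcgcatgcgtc
Mrpl32, chr13:14613038-14613287, minus strand: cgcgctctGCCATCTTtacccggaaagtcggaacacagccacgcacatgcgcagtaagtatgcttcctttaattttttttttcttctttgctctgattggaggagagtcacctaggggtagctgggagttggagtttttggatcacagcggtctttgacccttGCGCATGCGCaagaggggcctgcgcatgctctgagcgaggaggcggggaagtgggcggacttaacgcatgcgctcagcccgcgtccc
Mrps10, chr17:47368947-47369196, plus strand: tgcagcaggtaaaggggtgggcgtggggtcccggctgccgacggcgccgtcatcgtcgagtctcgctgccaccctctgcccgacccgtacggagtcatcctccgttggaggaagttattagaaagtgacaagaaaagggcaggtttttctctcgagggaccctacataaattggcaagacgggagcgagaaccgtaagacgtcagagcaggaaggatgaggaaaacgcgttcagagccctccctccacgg
Mrpl33, chr5:31613701-31613950, plus strand: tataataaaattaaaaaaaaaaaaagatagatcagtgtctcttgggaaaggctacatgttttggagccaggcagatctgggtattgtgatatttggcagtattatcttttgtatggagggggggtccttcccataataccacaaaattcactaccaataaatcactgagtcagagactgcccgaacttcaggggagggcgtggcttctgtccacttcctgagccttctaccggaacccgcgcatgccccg
The Mrpl44 and Mrpl17 windows carry the same NRF-1 letters, with a C in the open position, and Mrpl32 carries a T there. The median of F0 EX minus F0 SED was 0.13 for the 13 genes with NRF-1 letters and 0.03 for the 55 without, and 0.02 for the 25 genes with ETS letters and 0.10 for the 43 without. It was 0.07 for the 12 genes with YY1 letters and 0.04 for the 56 without. These values rest on 1 pool a side. For F0 against descendants the medians with and without a match were 0.01 and 0.02 (NRF-1), 0.02 and 0.01 (ETS), and 0.01 and 0.01 (YY1).

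The arrays resembled each other, with 2 exceptions. Across all kept genes, F0 SED had a median r of 0.974 with the other arrays and F1 EX pool 1 had 0.979, against 0.986 to 0.993 for the rest. The lower quartile of signal over all probe sets was 2.48 in both of these arrays, against 2.28 to 2.32 in the rest. Whether this shaped the differences below was not tested. The mean log2 signal of 12 muscle fibre markers, all of them kept, lay between 12.2 (F0 SED) and 12.5, as in the labelled tissue. The 8 connective tissue markers averaged 8.22 and 7.94 in the F0 pools and between 9.0 and 9.41 in the descendants, and 5 of them were called lower in F0. The endothelial list averaged 6.64 and 6.36 in F0 and 6.81 to 6.98 in the descendants, with 2 of 8 markers called lower in F0. The keratinocyte list, with 3 of 7 markers kept, averaged 3.88 in F0 EX, 4.60 in F0 SED and 2.93 to 3.46 in the descendants, with 2 called higher in F0. Lists for adipocytes (5.45 to 6.18), myeloid cells (5.14 to 5.83), Schwann cells (4.69 to 5.16) and erythrocytes (3.53 to 4.49) had no marker called in F0 against descendants. In that order, 7 of 10, 10 of 10, 4 of 8 and 2 of 7 markers were kept and could be called. The part of these lists in the results was not tested, and in pooled muscle fewer cells of a type and less RNA per cell cannot be told apart.

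The 77 genes varied over the arrays about as much as other genes did. The distance between a gene's lowest and highest array had a median of 0.59, against 0.60 for all kept genes, and was under 0.3 in 7 of them (9.09%, against 5.02%). The standard deviation over the 10 arrays had a median of 0.171, against 0.184 for all kept genes, and ran from 0.0712 to 0.470. Mrps15, a counterpart of bacterial S15, had the narrowest such distance, 0.20, followed by Mrps23 (0.23), Mrpl48 (0.24) and Mrps34 (0.27). Mrps10, a counterpart of bacterial S10, had the widest, 1.43, followed by Mrps35 (1.17), Mrpl22 (1.10), Mrpl23 (1.09) and Mrps30 (1.06). Among the 8 descendant pools alone the order turned: the median standard deviation was 0.170 for these genes and 0.154 for all kept genes.

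That spread lay mainly in the same arrays that stood apart over all genes. F1 EX pool 1 was 0.3 or more from a gene's own mean in 33 of the 77 genes and F0 SED in 24, against 6 or fewer in each other array. The share of all kept genes that far away was not counted. Over all kept genes the quartiles of this deviation were also widest apart in these arrays, at -0.15 and 0.20 in F1 EX pool 1 and -0.27 and 0.13 in F0 SED. F1 EX pool 1 was the highest of the 10 arrays for 28 genes (36.4%, against 21.9% of all kept genes), and F0 SED for 14 (18.2%, against 14.2%). F0 SED was the lowest for 18 (23.4%, against 27.2%) and F1 EX pool 2 for 15 (19.5%, against 9.09%). The median deviation of the 77 genes from their own means was 0.12 in F1 EX pool 1 and -0.09 in both F1 EX pool 2 and F1 SED pool 2. Over all kept genes the same arrays stood at 0.02, -0.02 and -0.02. In the other 7 arrays the median of the 77 lay between -0.03 and 0.07.

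**Figure D1:**
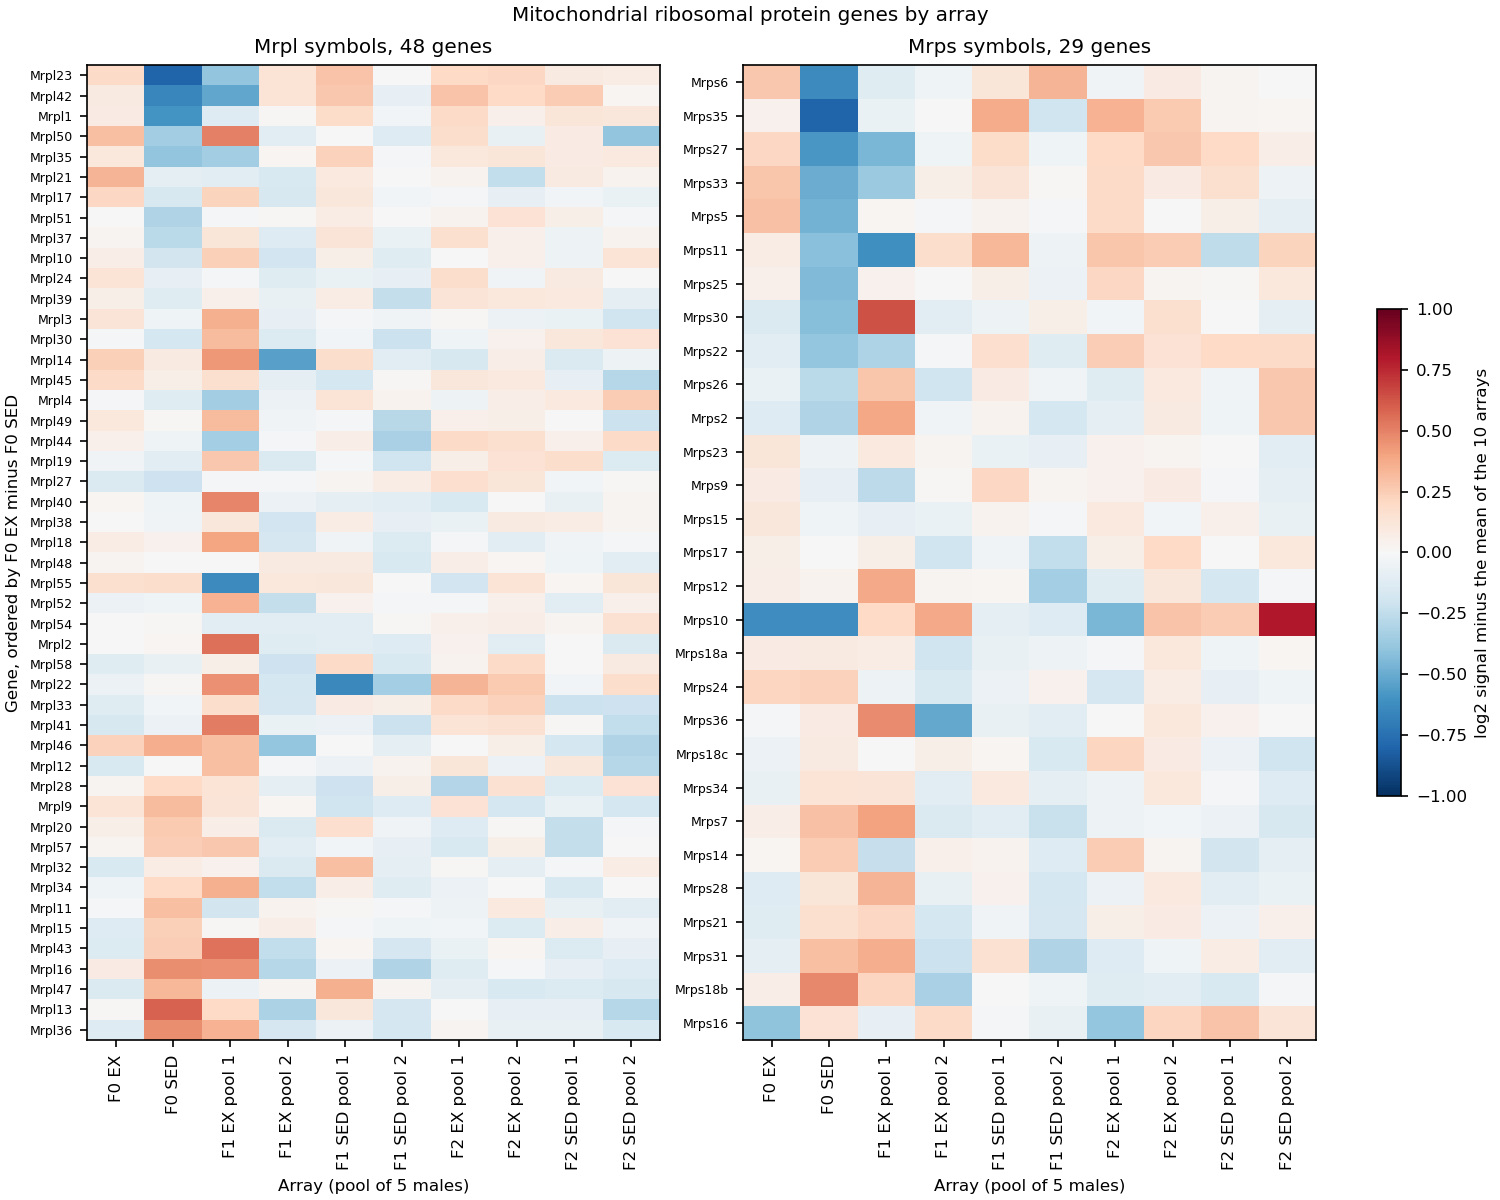
Log2 signal of each of the 77 genes in each of the 10 arrays, as the difference from the gene's mean over the arrays (colour, red higher and blue lower), with Mrpl symbols on the left and Mrps symbols on the right, ordered by F0 EX minus F0 SED. F0 SED and F1 EX pool 1 hold most of the strong colours of both kinds, and most other cells are pale apart from Mrps10.

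The pools of 1 group show how far a difference between single arrays can go. In F1 EX, 23 of the 77 genes differed by 0.5 or more between the pools (29.9%, against 15.3% of all kept genes), and pool 1 was higher in 51. The median of pool 1 minus pool 2 was 0.25, against 0.05 for all kept genes. The other groups had 1 (F1 SED), 2 (F2 EX) and 1 (F2 SED) genes that far apart. These were 1.3%, 2.6% and 1.3% of the 77, against 2.64%, 2.33% and 2.88% of all kept genes. In F1 SED the differences were small but pool 1 was higher in 66 of 77, with a median of 0.13 against 0.06 for all kept genes. Across the 77 genes, the difference F0 SED minus F0 EX and the difference F1 EX pool 1 minus pool 2, which share no array, had a Pearson r of 0.41 and a Spearman rho of 0.36. Over all kept genes these were 0.32 and 0.28. Genes are not independent replicates, and each set of points shares its arrays.

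**Figure D2:**
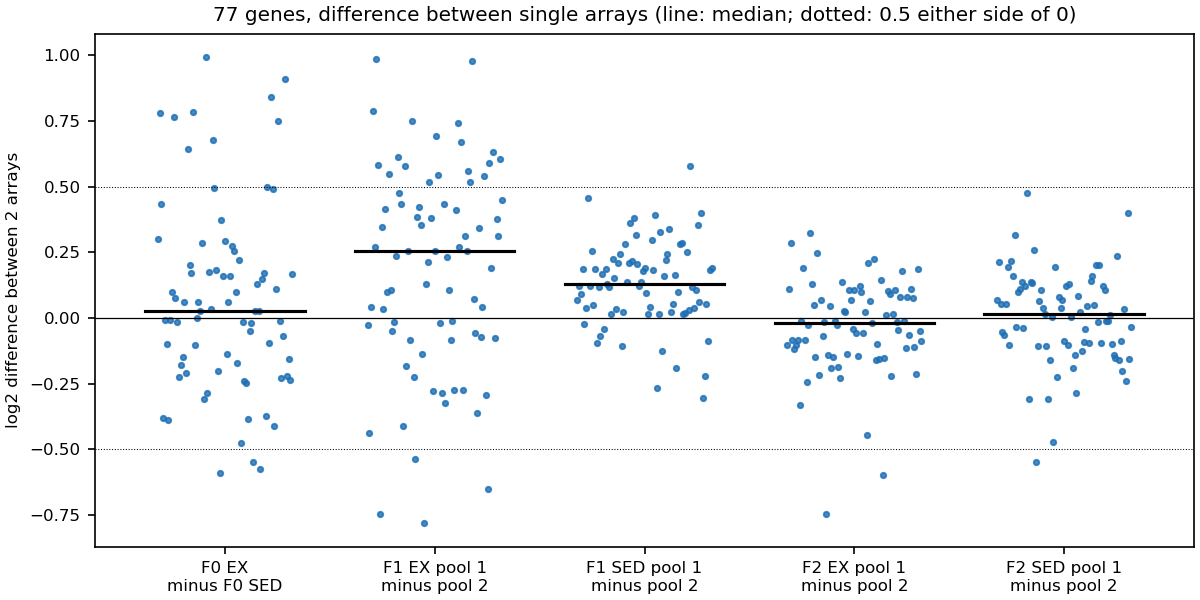
Differences between single arrays for the 77 genes (points, log2), for F0 EX minus F0 SED and for pool 1 minus pool 2 of each descendant group, with the median as a line and dotted lines at 0.5 on either side of 0. Between the F1 EX pools, which have the same label, 23 genes lie past the dotted lines, against 12 between the F0 pools and 1 or 2 in the other pairs.

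The first comparison set exercised against sedentary F0 mice, the generation that was itself exposed. With 1 pool on each side it has no replicate check and no test. The median difference of the 77 genes was 0.03, against 0.08 for all kept genes, and 37 genes differed by under 0.2. F0 EX was higher by 0.5 or more in 9 genes (11.7%, against 15.3% of all kept genes) and lower by as much in 3 (3.9%, against 5.38%). F0 EX was the higher pool in 41 genes (53.2%, against 58%). The direction of the median turned with the scaling: it was -0.11 after quantile normalization, where 9 genes were higher and 9 lower by 0.5 or more, and 0.17 after centring each array on its median, where 14 were higher and 0 lower. For all kept genes the corresponding medians were 0.01 and 0.22, and the counts higher and lower were 1835 and 644 as deposited, 1279 and 930 after quantile normalization, and 2932 and 305 after centring.

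The 5 genes highest in F0 EX were Mrpl23, Mrps6, Mrps35, Mrps27 and Mrps33. Mrpl23, a counterpart of bacterial L23 at the mouth of the exit tunnel, had 9.09 in F0 EX and 8.09 in F0 SED, 8.50 and 9.03 in F1 EX, 9.18 and 8.90 in F1 SED, 9.09 and 9.10 in F2 EX, and 8.99 and 8.97 in F2 SED. Its difference of 0.99 came from a low F0 SED pool, with F0 EX inside the range of the descendants, and its other probe set gave 0.93. Mrps35, a small subunit protein without a bacterial counterpart, had 5.44 in F0 EX and 4.60 in F0 SED, 5.34 and 5.41 in F1 EX, 5.78 and 5.20 in F1 SED, 5.75 and 5.67 in F2 EX, and 5.43 and 5.42 in F2 SED. Here too F0 SED (difference 0.84) was the only array outside the range of the descendants. Mrps6, a counterpart of bacterial S6, had 7.04 and 6.13 in the F0 pools and 6.65 to 7.11 in the descendants, a difference of 0.91. For Mrps27, a small subunit protein with pentatricopeptide repeats, the F0 pools had 6.24 and 5.45 and the descendants 5.58 to 6.30 (difference 0.78). For Mrps33 they had 8.08 and 7.30, and the descendants 7.43 to 7.99 (0.78, and 0.61 in its other probe set). In these 5 genes F0 SED was below every descendant pool, and in all but Mrps35 the next lowest array was F1 EX pool 1.

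The 5 genes lowest in F0 EX relative to F0 SED were Mrpl36, Mrpl13, Mrps16, Mrpl47 and Mrps18b. Mrpl36, a counterpart of bacterial L36, had 7.15 in F0 EX and 7.74 in F0 SED, 7.63 and 7.11 in F1 EX, 7.22 and 7.10 in F1 SED, 7.31 and 7.20 in F2 EX, and 7.21 and 7.13 in F2 SED. Its difference of -0.59 rested on a high F0 SED, and F1 EX pool 1 stood nearest to it. Mrpl13 had 6.20 and 6.78 in the F0 pools and 5.87 to 6.39 in the descendants (-0.58), and Mrps18b, 1 of 3 counterparts of bacterial S18, had 8.60 and 9.01 against 8.21 to 8.75 (-0.41). In both, F1 EX pool 1 was the highest descendant array. Mrps16, a counterpart of bacterial S16 whose mutation causes a respiratory chain deficiency in infants, had 6.68 in F0 EX, 7.22 in F0 SED, 6.99 and 7.27 in F1 EX, 7.06 and 7.01 in F1 SED, 6.69 and 7.29 in F2 EX, and 7.36 and 7.21 in F2 SED. There F0 EX was the low pool (-0.55), close to F2 EX pool 1. Mrpl47 had 4.64 and 5.12, within the descendants' 4.63 to 5.14 (-0.48, and -0.52 in its other probe set).

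Probe sets of 1 gene did not always give the same difference. For Mrps5, F0 EX minus F0 SED was 0.77 in the probe set used and -0.16 in the other. For Mrpl51 it was 0.30 in the probe set used and 1.40 in the other. In all, 8 of the 77 genes had 2 probe sets.

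By bacterial ancestry, the median of F0 EX minus F0 SED was -0.01 for the 48 genes with a counterpart, of which 4 were higher and 3 lower by 0.5 or more. It was 0.10 for the 29 without, of which 5 were higher and 0 lower. By symbol, it was 0.03 for Mrpl and 0.06 for Mrps genes. After quantile normalization these last were -0.16 and -0.05.

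Set against the 8 descendant pools, F0 EX lay within their range for 64 of the 77 genes, above it for 8 (10.4%, against 21.8% of all kept genes) and below it for 5 (6.49%, against 14.4%). F0 SED lay within the range for 44, above it for 14 (18.2%, against 16.8%) and below it for 19 (24.7%, against 29.5%). The 8 genes above in F0 EX were Mrpl21, Mrpl45, Mrpl55, Mrps5, Mrps15, Mrps23, Mrps24 and Mrps33, and the 5 below were Mrpl27, Mrpl32, Mrps10, Mrps16 and Mrps30. The F0 SED pool was below the descendants for, among others, Mrps2, Mrps5, Mrps6 and Mrps22 of the small subunit and Mrpl1, Mrpl17 and Mrpl23 of the large one. It was above them for, among others, Mrpl9, Mrpl11, Mrpl16 and Mrpl28. Both F0 pools were within the range for 38 genes.

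The second comparison set both F0 pools against the mean of F1 and F2, with ancestry in the model, and so joins age and generation. A gene was called where the adjusted p of limma (Benjamini-Hochberg over all kept genes) was under 0.05. None of the 77 genes was called, while 2.33% of all kept genes were. At an unadjusted p under 0.05 there were 10 genes, 5 higher and 5 lower in F0 (13%, against 17.6% of all kept genes). The median difference was 0.01, against -0.02 for all kept genes, and 41 estimates were above 0 (53.2%, against 45.1%). The F0 pools did not overlap with the descendants in 5 genes (6.49%, against 12.4%). The 95% interval lay within 0.5 on either side of 0 for 50 genes, and within 1 for all but Mrps10. The Mrpl and Mrps medians were 0.01 and 0.00, and those with and without a bacterial counterpart 0.03 and -0.03.

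**Figure D3:**
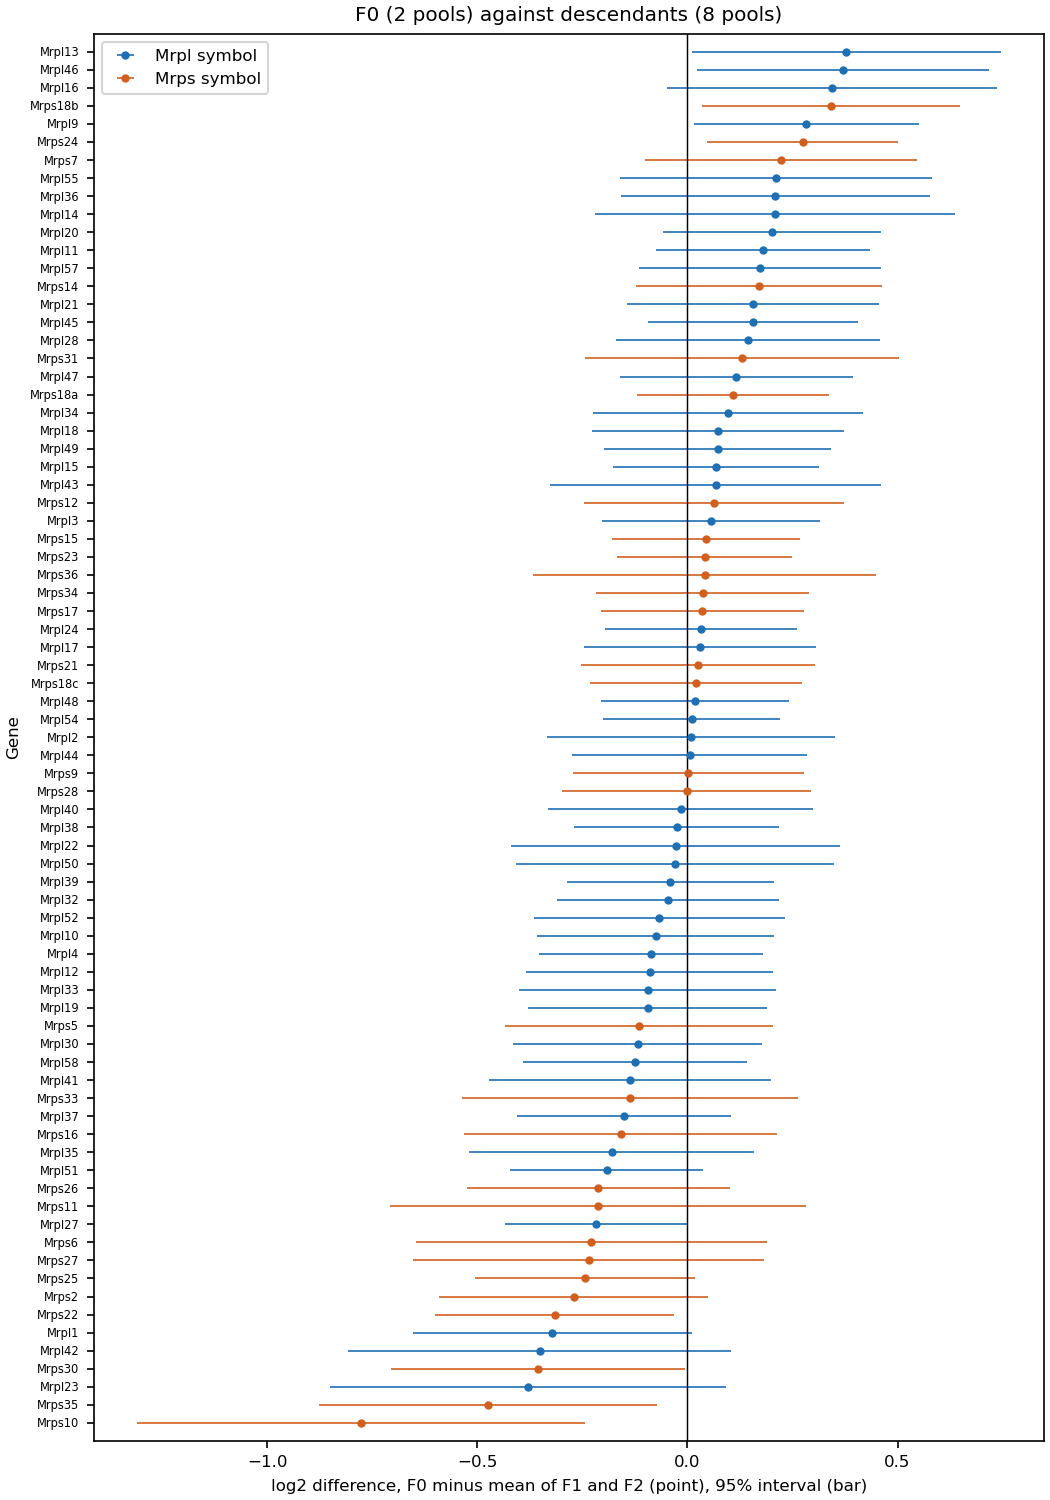
Estimated log2 difference of F0 (2 pools) from the mean of F1 and F2 (8 pools) for each of the 77 genes, with its 95% interval as a bar, blue for Mrpl and orange for Mrps symbols. Estimates run from -0.78 (Mrps10) to 0.38 (Mrpl13), and most intervals cross 0.

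Mrps10 had the smallest p of the 77 genes in this comparison. Its signals were 4.83 in F0 EX and 4.83 in F0 SED, 5.65 and 5.83 in F1 EX, 5.36 and 5.32 in F1 SED, 4.99 and 5.74 in F2 EX, and 5.71 and 6.26 in F2 SED. Both F0 pools were below every descendant pool, with F2 EX pool 1 closest. The difference was -0.78 (SE 0.244, 95% interval -1.31 to -0.24), with a limma adjusted p of 0.129. Leaving out F2 EX pool 1, the lowest descendant pool, gave -0.90 with a limma adjusted p of 0.0309, in a fit that called 1.87% of all kept genes. With any other array left out it was not called.

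Mrps24, a counterpart of bacterial S3, was above the descendants in both F0 pools: 5.72 and 5.74 in F0, 5.45 and 5.36 in F1 EX, 5.45 and 5.55 in F1 SED, 5.34 and 5.58 in F2 EX, and 5.43 and 5.47 in F2 SED. The difference was 0.27 (SE 0.104, limma adjusted p = 0.202). Mrpl55 was the other gene of this kind, at 7.56 and 7.57 in F0 and 6.76 to 7.53 in the descendants (difference 0.21, limma adjusted p = 0.564). Below the descendants were Mrps30, at 5.15 and 4.86 against 5.17 to 5.92 (-0.36, limma adjusted p = 0.277), and Mrpl27, a counterpart of bacterial L27, at 6.43 and 6.37 against 6.55 to 6.75 (-0.22, limma adjusted p = 0.280). In the other probe set of Mrpl27 the difference was -0.06. In Mrpl55 and Mrps30 the nearest F0 and descendant pools were less than 0.05 apart, and in Mrpl27 a little further apart.

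Several other genes had an unadjusted p under 0.05 with overlapping pools. Mrps35 had an estimate of -0.48 and Mrps22, whose mutation causes infantile cardiomyopathy with lactic acidosis, of -0.32. Mrpl13 had 0.38, Mrpl46 0.37, Mrps18b 0.34 and Mrpl9 0.28. Their limma adjusted p lay between 0.209 (Mrps35) and 0.269 (Mrpl13).

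The 2 F0 pools did not carry this comparison equally. With F0 SED alone against the descendants, 4 genes were called lower: Mrpl1 (-0.70, limma adjusted p = 0.0175), Mrps6 (-0.76, 0.0175), Mrpl23 (-0.92, 0.0256) and Mrps35 (-0.85, 0.0312). They were 5.19% of the 77 genes, against 7.65% of all kept genes called lower and 10.3% called in either direction in the same fit. With F0 EX alone, 0 of the 77 were called by limma, against 0.719% of all kept genes, and 1 of the 77 had an unadjusted p under 0.05. In these fits the lone F0 pool is assumed to vary like the other groups. Because ancestry is in the model, its difference is taken from the descendants of its own ancestry only, F0 SED from the SED pools and F0 EX from the EX pools.

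The third comparison asked whether descendants of exercised mice differed from those of sedentary mice, over both generations. None of the 77 genes was called by limma, and 0% of all kept genes were. At an unadjusted p under 0.05 there were 3 (3.9%, against 4.99%), Mrpl22, Mrpl41 and Mrpl4. The median effect was 0.04, against 0.01 for all kept genes, with 49 estimates above 0 (63.6%, against 53.3%). The 95% interval was within 0.5 on either side of 0 for 71 of the 77 genes and within 1 for all 77. EX and SED pools did not overlap in 1 gene (1.3%, against 3.03%).

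Mrpl22, a counterpart of bacterial L22 in the wall of the exit tunnel, had the smallest p. Its signals were 5.22 and 4.59 in F1 EX, 4.12 and 4.42 in F1 SED, 5.10 and 5.03 in F2 EX, and 4.74 and 4.94 in F2 SED, with 4.71 in F0 EX and 4.77 in F0 SED. EX was above SED within each generation, although F1 EX pool 2 was below both F2 SED pools. The effect was 0.43 (SE 0.150, limma adjusted p = 0.888), and 0.26 without F1 EX pool 1.

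Mrpl41 had 7.88 and 7.30 in F1 EX, 7.31 and 7.16 in F1 SED, 7.50 and 7.52 in F2 EX, and 7.38 and 7.12 in F2 SED. Its effect of 0.31 (SE 0.127, limma adjusted p = 0.888) was -0.00 in its other, dimmer probe set, and 0.18 without F1 EX pool 1. Mrpl4, a counterpart of bacterial L4, had 6.85 and 7.14 in F1 EX, 7.34 and 7.23 in F1 SED, 7.15 and 7.26 in F2 EX, and 7.29 and 7.45 in F2 SED, an effect of -0.23 (SE 0.0966). Mrps18c, another counterpart of S18, had 0.19 (SE 0.0900). Mrps23, a small subunit protein without a bacterial counterpart, was the gene with EX and SED apart: 8.35 and 8.28 in F1 EX, 8.29 and 8.28 in F2 EX, 8.19 and 8.17 in F1 SED, and 8.26 and 8.14 in F2 SED. All 4 EX pools were above all 4 SED pools, but the nearest ones lay closer together than the F0 pools (8.37 and 8.20). The effect was 0.11 (SE 0.0796, limma adjusted p = 0.888).

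In F1 alone, the generation born to exposed parents, none of the 77 genes was called by limma, as was 0% of all kept genes. At an unadjusted p under 0.05 there were 2 (2.6%, against 4.88%), Mrpl22 and Mrps6. The median effect was 0.02 (-0.01 after centring), against -0.00 for all kept genes, and 43 estimates were above 0 (55.8%, against 48.9%). Pools of EX and SED did not overlap in 15 genes (19.5%, against 29.6%), 7 of them higher in EX and 8 lower. Mrpl22 differed by 0.63 (SE 0.202, 95% interval 0.18 to 1.09, limma adjusted p = 0.804). Mrps6 had 6.65 and 6.73 in F1 EX and 6.89 and 7.11 in F1 SED, so that EX was lower by 0.31 (SE 0.128) without passing the test. Mrps12, a counterpart of bacterial S12 at the decoding site, had 5.48 and 5.12 in F1 EX and 5.12 and 4.76 in F1 SED, with a margin between the pools that was under 0.01 (0.36, SE 0.174). Mrpl4 (-0.29) and Mrps27 (-0.32; 5.58 and 5.99 in EX, 6.22 and 5.99 in SED) were lower in both EX pools, in Mrps27 with nearest pools under 0.01 apart. Without F1 EX pool 1 the estimates were 0.32 for Mrpl22, 0.18 for Mrps12, -0.14 for Mrpl4 and -0.12 for Mrps27, and without F1 SED pool 2 they were 0.18 for Mrps12 and -0.20 for Mrps6. Without F1 SED pool 1 Mrps27 had -0.21. The 95% interval was within 1 on either side of 0 for all but Mrpl22.

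The F1 comparison depended on which EX pool was read. With F1 EX pool 1 as the only EX pool of F1, 10 of the 77 genes were called (13%, against 8.74% of all kept genes): Mrpl2, Mrpl16, Mrpl22, Mrpl40, Mrpl41, Mrpl43, Mrps7, Mrps30 and Mrps36 higher and Mrpl55 lower. Those higher were 11.7% of the 77, against 3.75% of all kept genes, and the lower 1.3%, against 4.99%. Estimates ran from 0.57 (Mrps7) to 0.95 (Mrpl22) for the higher genes and stood at -0.70 for Mrpl55, with limma adjusted p from 0.0211 (Mrpl22) to 0.0372 (Mrpl55). With F1 EX pool 2 as the only EX pool, 0 of the 77 and 0% of all kept genes were called by limma, and 4 of the 77 had an unadjusted p under 0.05. In these fits the lone F1 EX pool is assumed to vary like the other groups, and pool 1 is the array that stood apart. In Mrpl2, for example, a counterpart of bacterial L2 near the peptidyl transferase centre, F1 EX had 8.88 and 8.21, F1 SED 8.22 and 8.20, F2 EX 8.37 and 8.22, F2 SED 8.32 and 8.19, F0 EX 8.32 and F0 SED 8.34. Only F1 EX pool 1 stood away from the others.

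In F2 alone, whose grandparents were the exposed generation, none of the 77 genes was called by limma, as was 0% of all kept genes. At an unadjusted p under 0.05 there were 2 (2.6%, against 4.45%), Mrpl33 and Mrps10. The median effect was 0.07 (0.03 after quantile normalization and 0.13 after centring), against 0.04 for all kept genes, and 59 estimates were above 0 (76.6%, against 60.7%). After quantile normalization 46 were above 0 (59.7%, against 55.3%), and after centring on array medians 65 (84.4%, against 74.1%). Pools did not overlap in 26 genes (33.8%, against 40.4%). EX was above SED in 24 of these (31.2%, against 25.8%) and below in 2, Mrpl4 and Mrpl30 (2.6%, against 14.6%). The largest difference above 0 among them was 0.42, and 0 of the 77 genes reached 0.5 in that direction.

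Mrpl33, a counterpart of bacterial L33, led with 3.67 and 3.71 in F2 EX and 3.26 and 3.28 in F2 SED. Its F1 pools had 3.65 and 3.31 in EX and 3.56 and 3.53 in SED, and the F0 pools 3.36 and 3.45. The F2 pools of each ancestry nearly coincided, and the F1 EX pools spanned most of the distance between them. The effect was 0.42 (SE 0.138, 95% interval 0.11 to 0.73, limma adjusted p = 1.00), at a signal near the filter on low values. Mrpl45, which ties the mitochondrial ribosome to the inner membrane near the tunnel exit, had 7.21 and 7.20 in F2 EX and 7.02 and 6.82 in F2 SED (0.29, SE 0.142). Mrps14, a counterpart of bacterial S14, had 6.48 and 6.25 against 6.04 and 6.14 (0.27, SE 0.145), Mrps18c 8.05 and 7.93 against 7.78 and 7.64 (0.28, SE 0.127), and Mrps35 5.75 and 5.67 against 5.43 and 5.42 (0.28, SE 0.176). Each of these was above in both EX pools. Mrps10 had the lowest estimate, -0.62 (SE 0.244), but its F2 EX pools of 4.99 and 5.74 and F2 SED pools of 5.71 and 6.26 overlapped.

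**Figure D4:**
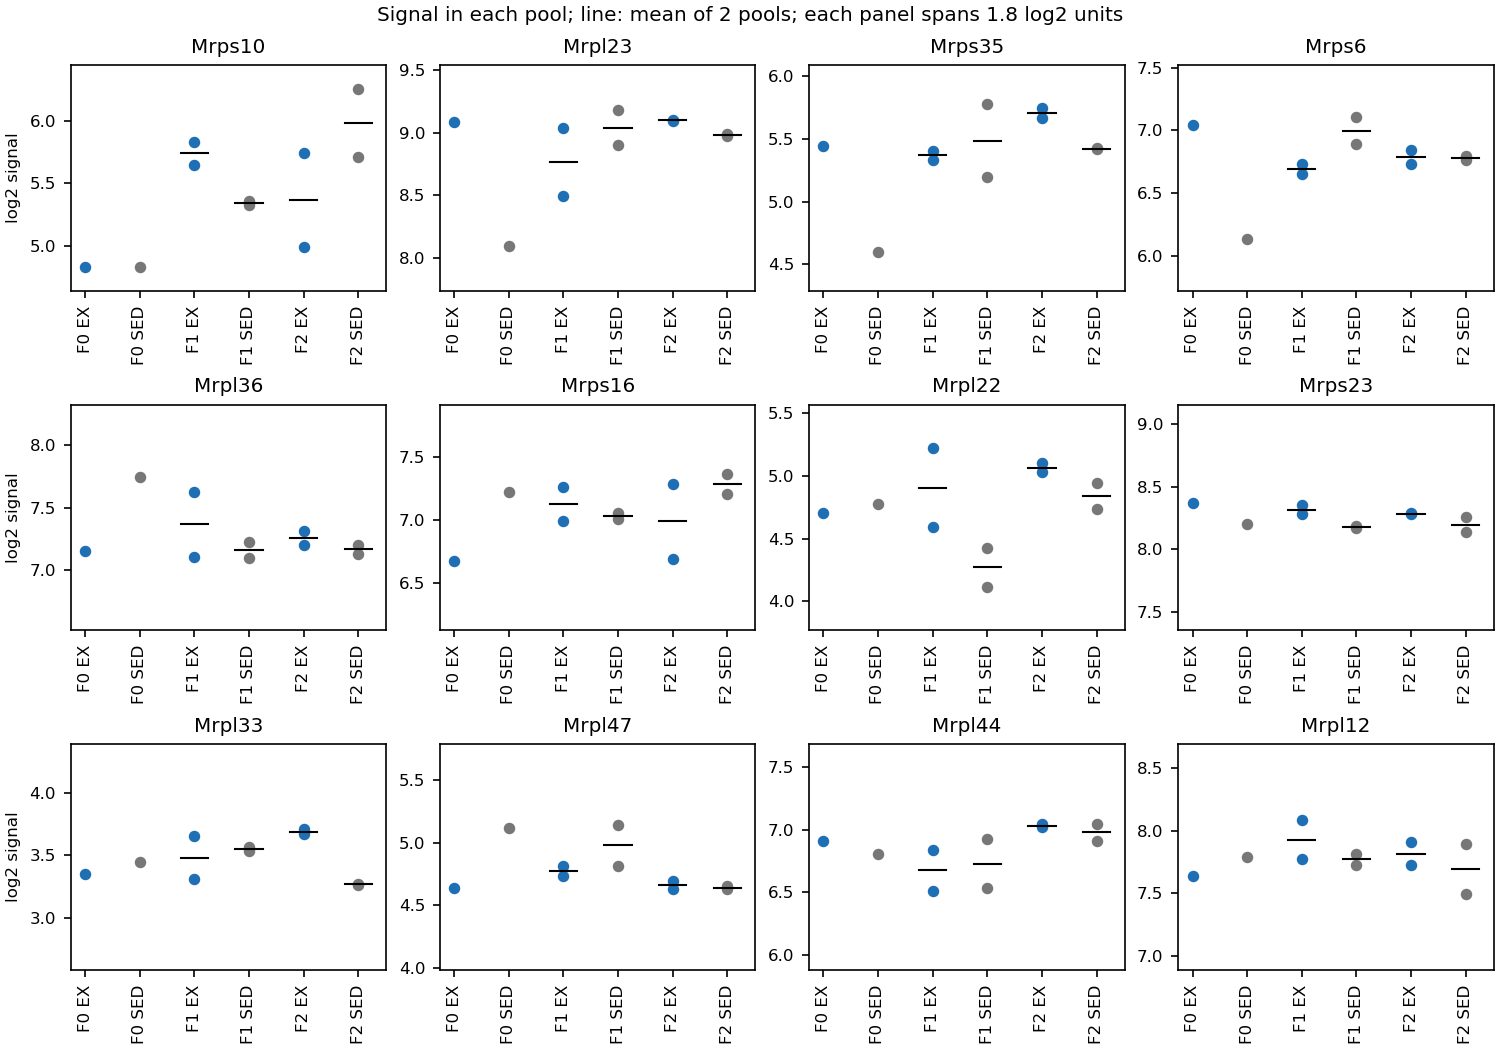
Log2 signal of 12 of the genes in each pool, by group (blue for EX, grey for SED), with a line at the mean where a group has 2 pools; each panel spans the same log2 distance. F0 SED lies apart in Mrpl23, Mrps35, Mrps6 and Mrpl36, both F0 pools are low in Mrps10, and the F2 pools of each ancestry separate in Mrpl33.

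The ancestry effects of the generations were then set against each other, as F2 effect minus F1 effect. None of the 77 genes was called by limma, as was 0% of all kept genes, and 2 had an unadjusted p under 0.05 (2.6%, against 4.34%). The median was 0.02, against 0.04 for all kept genes, and 43 estimates were above 0 (55.8%, against 56.2%). After quantile normalization the median was -0.05, with 32 above 0 (41.6%), against 0.00 and 50% for all kept genes. After centring it was 0.11, with 55 above 0 (71.4%), against 0.13 and 70.6%. The median of all kept genes thus moved with the scaling too, and that of the 77 was the lower each time. Mrps10 had -1.01 (SE 0.345, 95% interval -1.79 to -0.24, limma adjusted p = 0.919): EX was the higher group in F1 and the lower in F2. Mrpl33 had 0.49 (SE 0.195), Mrps27 0.42 (SE 0.226), Mrps9 0.36 (SE 0.194) and Mrps11 0.64 (SE 0.359). Without F1 EX pool 1 the values of Mrps27, Mrps9 and Mrps11 were 0.21, 0.22 and 0.25. Mrps11, a counterpart of bacterial S11, had 4.03 and 4.81 in F1 EX, 4.97 and 4.59 in F1 SED, 4.91 and 4.89 in F2 EX, and 4.38 and 4.86 in F2 SED, so that the F1 EX pools differed more from each other than the EX and SED means did in either generation. This comparison was the least precise: the 95% interval was within 0.5 on either side of 0 for 11 genes, and within 1 for 72.

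The last comparison set F2 against F1 at the same age. None of the 77 genes was called by limma, as was 0% of all kept genes, and 4 had an unadjusted p under 0.05 (5.19%, against 4.25%). The median was 0.00 for these genes and 0.00 for all kept genes, with 41 estimates above 0 (53.2%, against 51.6%). The 95% interval was within 0.5 on either side of 0 for 71 genes and within 1 for all 77. Pools of F1 and F2 did not overlap in 2 genes (2.6%, against 2.88%).

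Mrpl44, a large subunit protein related to ribonuclease III and mutated in infantile cardiomyopathy, had the smallest p. It had 6.51 and 6.84 in F1 EX, 6.93 and 6.53 in F1 SED, 7.04 and 7.02 in F2 EX, and 6.91 and 7.05 in F2 SED. The F2 pools lay close together, 3 of them above every F1 pool and the other inside the wider F1 range, and the difference was 0.30 (SE 0.113, limma adjusted p = 0.911). Mrps22 had 5.33 and 5.61 in F1 EX, 5.80 and 5.51 in F1 SED, 5.88 and 5.78 in F2 EX, and 5.83 and 5.83 in F2 SED (0.27, SE 0.104). Here too the F2 pools were closer together than the F1 pools. Mrpl22 had 0.37 (SE 0.150).

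The 2 genes with F1 and F2 apart were Mrpl47, a counterpart of bacterial L29, and Mrpl54. Mrpl47 had 4.73, 4.81, 5.14 and 4.81 in F1 and 4.70, 4.63, 4.65 and 4.63 in F2 (-0.22, SE 0.0992, limma adjusted p = 0.911). Mrpl54 had 6.46, 6.47, 6.46 and 6.59 in F1 and 6.62, 6.64, 6.60 and 6.73 in F2 (0.15, SE 0.0810, limma adjusted p = 0.911). In both, the margin between the nearest pools was under 0.1.

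Other genes with well described products had no call in any of these comparisons. Mrpl12, a stalk protein that also binds the mitochondrial RNA polymerase, had 7.63 in F0 EX, 7.79 in F0 SED, 8.08 and 7.77 in F1 EX, 7.73 and 7.82 in F1 SED, 7.91 and 7.72 in F2 EX, and 7.89 and 7.50 in F2 SED. Its estimates were -0.09 (SE 0.135) for F0 against descendants, 0.14 (SE 0.113) for ancestry and -0.09 (SE 0.113) for F2 against F1. Mrpl11, at the base of the same stalk, had 0.18 (SE 0.117), 0.02 and 0.00 in the same order. Mrpl3, a counterpart of bacterial L3, had 0.06, 0.14 and -0.13. Mrps7, a counterpart of bacterial S7 in the head of the small subunit, had 0.22, 0.18 and -0.06. Mrps34, a small subunit protein without a bacterial counterpart, had 0.04, 0.05 and -0.03, and Mrpl28, a counterpart of bacterial L28, 0.14, 0.01 and -0.01. The 95% interval of each estimate for Mrpl12, Mrpl11, Mrpl3 and Mrps34 lay within 0.5 on either side of 0.

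Other genes of mitochondrial transcription and translation, among them ribosomal proteins with other symbols, were read by lists of related function. None of their kept members was called by limma in any of the 6 tested comparisons. At an unadjusted limma p under 0.05 in F0 against descendants there were 1 of 19 genes of transcription and RNA handling (higher in F0) and 3 of 13 translation factors (1 higher, 2 lower). There were also 2 of 19 aminoacyl-tRNA synthetases (2 higher), 3 of 21 assembly genes (2 higher, 1 lower) and 1 of 4 ribosomal proteins with other symbols (lower). Of all kept genes, 17.6% had such a p. In each other comparison there were between 1 and 5 over the 76 entries of the 5 lists, against 4.25% to 4.99% of all kept genes. The 19 kept genes of mitochondrial transcription and RNA handling (of 24 listed) were all higher in F0 EX than in F0 SED, with a median of 0.38 and 7 at 0.5 or more (all kept genes: 58% higher, a median of 0.08 and 15.3% at 0.5 or more), and 18 of 19 stayed higher after quantile normalization (median 0.18). Pnpt1, a polynucleotide phosphorylase, had 5.75 in F0 EX, 4.49 in F0 SED and 4.97 to 5.45 in the descendants. Mterf2, with the smallest p of this list in F0 against descendants, had 3.98 in F0 EX, 3.95 in F0 SED and 3.39 to 3.79 in the descendants. Its difference was 0.37 (limma adjusted p = 0.106), at a signal near the filter on low values. The 13 kept translation factors (of 16) had a median of 0.34 with 6 at 0.5 or more, and 0.13 after quantile normalization, where all kept genes had 0.01. Among them Gfm1, an elongation factor, had 8.79 in F0 EX, 7.84 in F0 SED and 8.06 to 8.76 in the descendants. Pnpt1 and Gfm1 were chosen after their values were seen. In both, the lowest pool was F0 SED and the next lowest was F1 EX pool 1.

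Taco1, a translational activator of a cytochrome oxidase subunit, had 7.89 in F0 EX, 7.15 in F0 SED and 7.84 to 8.11 in the descendants (F0 against descendants -0.45, limma adjusted p = 0.137). Oxa1l, which inserts new proteins into the inner membrane, had 8.55, 7.92 and 8.43 to 8.67 (-0.31). Mtfmt, of the same list, was higher in F0 (0.28, limma adjusted p = 0.246). The 19 kept aminoacyl-tRNA synthetases (of 21) had a median F0 difference of 0.12, with 1 higher and 2 lower by 0.5 or more, and -0.02 after quantile normalization. Rars2, the arginyl-tRNA synthetase, had 5.74 in F0 EX, 5.63 in F0 SED and 5.19 to 5.64 in the descendants (F0 against descendants 0.32, limma adjusted p = 0.164). Ears2 had 4.06 in F0 EX, 4.86 in F0 SED and 3.75 to 4.26 in the descendants (0.46, limma adjusted p = 0.222). The 21 kept genes of assembly and ribosomal RNA modification (of 27) had a median of 0.04 (-0.06 after quantile normalization), with 1 gene past 0.5 in each direction. Eral1, a chaperone of the small subunit RNA, had 6.62, 5.87 and 6.39 to 7.25 (-0.43). Of the same list, Mrm3 (0.30, limma adjusted p = 0.197) and Rpusd4 (0.24, limma adjusted p = 0.237) were higher in F0 than in the descendants. Ribosomal proteins without an Mrpl or Mrps symbol, 4 kept of 7 listed, had a median of 0.45 (0.29 after quantile normalization). Among them Ptcd3, a small subunit protein with pentatricopeptide repeats, had 7.14 in F0 EX, 6.21 in F0 SED and 6.92 to 7.38 in the descendants.

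The cytosolic ribosomal proteins, 58 of 62 kept, also had 0 members called by limma in any tested comparison. At an unadjusted limma p under 0.05 there were 9 of 58 in F0 against descendants, against 17.6% of all kept genes. In each other comparison there were between 1 and 5 of 58, against 4.25% to 4.99% of all kept genes. Their median F0 EX minus F0 SED was 0.09 as deposited and -0.17 after quantile normalization. As deposited, 14 of 58 were higher by 0.5 or more (15.3% of all kept genes) and 5 lower (5.38% of all kept genes). As deposited, the median of this list was above that of all kept genes (0.08) and that of the 77 mitochondrial genes (0.03) below it. After quantile normalization both lists were below all kept genes (0.01), the 77 genes at -0.11.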

How the data were processed

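The table that the authors deposited holds log2 signals per probe set for 10 arrays. The log2 scale was read from the range of the values (0.966 to 14.2). Per the submitters' processing notes, Affymetrix Expression Console was used. The version, genome build, background correction and normalization: not given in the sources used here. Values entered the fits unchanged. Precision is limited by the small number of arrays.

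Gene symbols come from the platform's annotation in GEO, possibly outdated: of 35557 probe sets, 21789 had 1 symbol, 1621 several and 12147 none. Through Entrez identifiers, 21698 probe sets were found in a RefSeq table of GRCm38.p6, used for names and promoter windows, and 0 symbols changed. Genes were kept if their mean signal reached the 40th percentile (3.23).

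Differences were tested across all kept genes with limma 3.58.1 under R 4.3.3 (two-sided moderated tests from lmFit with eBayes, Benjamini-Hochberg, adjusted p 0.05), in an additive model of generation and ancestry (ancestry and F2 against F1 on 8 arrays, F0 on 10) and in a model of the 4 descendant groups. The fits were checked on simulated data. The labels number the pools without saying that they hold different animals, so the spread behind the p-values is that between pools and could be purely technical. Genes named per comparison are those with the smallest p among genes whose arrays do not overlap, filled to 5, the 5 highest and 5 lowest for F0, a set list of 12, and up to 4 per pathway list. A few others are named as examples of counts. The members and lists were chosen with earlier results of these data known.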

Additional observations from a re-analysis of the deposited data

Results flagged for a closer look

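The highest and lowest array of each named gene were set against the other arrays of its group where a group had 4 to 10 arrays, in 30 groups of values. In 3 of these the gap to the nearest array was large relative to the whole range. The genes were named partly for arrays that did not overlap, so the chance rate of such gaps in unselected groups does not apply. F1 EX pool 1, which holds 2 of the 3, stood apart over all genes as well. Mrps30 had 5.92 in F1 EX pool 1, while the other 7 descendant pools lay between 5.17 and 5.45. Mrpl55 had 6.76 in the same array, while the others lay between 7.20 and 7.53. Mrpl54 had 6.59 in F1 SED pool 2, while the other F1 pools lay between 6.46 and 6.47. No gene of the 77 had an adjusted p under 0.05 (limma) for F2 effect minus F1 effect of ancestry.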

How the results depend on the processing

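Results were recomputed after quantile normalization, after centring on array medians, without and with a stricter filter, with the mean of probe sets, with a trended robust fit, with array weights, with F0 set against F1 or F2 alone, with the F0 pair in the ancestry fit, with each pool left out and without F0 SED and F1 EX pool 1 together. The count of the 77 genes called stayed at 0 in every tested comparison except with a pool left out, where it ranged from 0 to 4 for F0 against descendants and from 0 to 10 for F1 ancestry. The median of F0 EX minus F0 SED went to -0.11 after quantile normalization and to 0.17 after centring. The median of the difference between ancestry effects turned to -0.05 after quantile normalization, and went to 0.11 after centring and to 0.13 without F0 SED and F1 EX pool 1. For all kept genes it was 0.00 after quantile normalization and 0.13 after centring. The F1 ancestry median turned to -0.01 after centring, the F2 ancestry median was 0.03 after quantile normalization and 0.13 after centring, and that of F2 against F1 was -0.00 and 0.05. With 1 pool left out, medians ranged from -0.054 to 0.14 for F1 ancestry, from -0.084 to 0.13 for the difference of effects, from 0.01 to 0.09 for ancestry over both generations, from 0.04 to 0.08 for F2 ancestry, from -0.03 to 0.05 for F2 against F1 and from -0.02 to 0.04 for F0 against descendants. The cause of these shifts was not tested. Among genes picked for a tested comparison by p or by arrays that do not overlap, 0 estimates reversed in that comparison. These genes were picked on the same arrays. Where groups do not overlap, leaving out a pool can hardly reverse the estimate, so this count is no check on them. Genes under the stricter filter had no value there. Other named values close to 0 are not covered by this count. Centring moves every gene alike, and the F2 against F1 median of all kept genes went from 0.00 to 0.05. That shift turns the small F2 against F1 values of Mrps34 (-0.03) and Mrpl28 (-0.01) positive. With the replicate number as a block, 0 of the 77 genes were called in each comparison. The deviations of pools with the same number were close to uncorrelated over genes (r between -0.11 and 0.06 across group pairs). These values cannot decide whether the numbers pair the samples, because each group holds few pools and the labels do not state it.

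With 1 pool per F0 group and 2 per descendant group, the median distance from an estimate to the end of its 95% interval was 0.30 for F0 against descendants, 0.24 for ancestry over both generations and 0.36 within 1 generation.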
